A study of Mus musculus with 2 samples.

Results

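Genes of cholesterol synthesis, of its SREBP control and of LXR-driven efflux were compared between embryonic endothelial cells with and without Snail1. The list holds 37 genes, picked by gene name and pathway role with earlier results of these arrays known. A gene was read from the array probe sets that GEO's platform annotation assigns to that gene symbol alone. This gave values for 34 of the 37 genes, out of 18193 genes with such a probe set, and Acat2, Soat1 and Nr1h2 had none here. Every value is an RMA expression value on the log2 scale, and every difference is Snail1 KO minus WT, so that a difference of 1 is 2-fold.

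The cells were primary endothelial cells, which line blood vessels, from mouse embryos (C57/BL6) at E10.5, in mid-gestation. All of them carried floxed Snail1 alleles (Snail1f/f) and were cultured in 20% fetal bovine serum with endothelial growth factors. WT cells received an adenovirus for β-galactosidase (adeno-βGal) and Snail1 KO cells an adenovirus for the Cre recombinase (adeno-Cre), followed by a recovery of several days. The series holds 2 arrays, 1 per group, so no difference below was tested and none has a replicate error. Deletion of Snail1 cannot be told apart from the effect of the other virus, of Cre itself or of the culture, and serum, a source of lipoprotein cholesterol, was supplied to both.

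Cells make cholesterol from acetyl-CoA through mevalonate, farnesyl diphosphate, squalene and lanosterol. When membranes of the endoplasmic reticulum are low in sterol, Scap escorts the transcription factors SREBP-1 and SREBP-2 to the Golgi for cleavage, and the released factors switch on the synthesis enzymes; Insig proteins hold Scap back when sterol is plentiful. Excess cholesterol yields oxysterols, which activate the nuclear receptors LXR alpha and LXR beta, and these switch on the exporters Abca1 and Abcg1 and the fatty acid genes driven by SREBP-1c. Endothelial cells take up lipoprotein cholesterol and also export it through these carriers.

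Promoter sequences from RefSeq (GRCm38.p6), running 250 bases before to 50 bases after an annotated start site, were found for 29 of the 37 genes in 38 windows. Fdps, Fdft1, Sqle, Abcg1, Npc1, Stard4, Scd1 and Scd2 were not matched. The 4 windows below were picked for a motif match or for the size of the gene's difference. Hmgcs1 was the only gene of the list with the sterol regulatory element core searched for. Tm7sf2 and Msmo1 are the cholesterol synthesis enzymes with the largest differences on the brightest probe set of each gene, and Abca1 is the main LXR target. Capitals mark motif matches.
Hmgcs1 (chr13:119690101-119690400, plus strand): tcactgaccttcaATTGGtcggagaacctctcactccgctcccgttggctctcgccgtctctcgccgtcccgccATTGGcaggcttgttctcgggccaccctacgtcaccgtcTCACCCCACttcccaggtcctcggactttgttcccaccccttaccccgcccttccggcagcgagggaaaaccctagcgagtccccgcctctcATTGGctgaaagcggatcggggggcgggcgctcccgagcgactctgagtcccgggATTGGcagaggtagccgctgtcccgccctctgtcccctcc
Tm7sf2 (chr19:6067801-6068100, minus strand): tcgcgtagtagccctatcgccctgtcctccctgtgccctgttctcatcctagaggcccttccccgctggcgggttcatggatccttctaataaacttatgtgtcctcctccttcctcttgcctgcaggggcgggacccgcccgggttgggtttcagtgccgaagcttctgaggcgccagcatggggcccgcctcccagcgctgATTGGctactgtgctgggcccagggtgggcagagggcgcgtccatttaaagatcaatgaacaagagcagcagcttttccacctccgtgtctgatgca
Msmo1 (chr8:64733529-64733828, minus strand): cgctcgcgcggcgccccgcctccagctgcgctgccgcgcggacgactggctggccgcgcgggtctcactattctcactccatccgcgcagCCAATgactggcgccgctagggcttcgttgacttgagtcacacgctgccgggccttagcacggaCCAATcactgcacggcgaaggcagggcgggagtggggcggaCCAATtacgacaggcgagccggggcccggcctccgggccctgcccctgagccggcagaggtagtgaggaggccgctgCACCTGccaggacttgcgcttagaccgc
Abca1 (chr4:53159846-53160145, minus strand): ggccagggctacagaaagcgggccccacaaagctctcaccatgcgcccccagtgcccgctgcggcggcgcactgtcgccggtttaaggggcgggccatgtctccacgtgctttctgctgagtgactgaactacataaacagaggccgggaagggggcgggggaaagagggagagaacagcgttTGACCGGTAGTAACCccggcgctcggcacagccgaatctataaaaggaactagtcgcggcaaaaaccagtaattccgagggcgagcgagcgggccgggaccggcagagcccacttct

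Each motif was searched on both strands, and matches to different motifs did not overlap in the windows of these genes. The sterol regulatory element core TCACNCCAC was found in 1 of the 38 windows, that of Hmgcs1, where it begins at position -137 from the start site, and in 1.24% of all 32851 windows. CCAAT, the box bound by NF-Y, a factor known to work beside SREBP, was found in 23 of the 38 windows (60.5%), against 37.4% of all windows. CAGGTG, an E-box of the kind Snail1 binds, was found in 10 of the 38 (26.3%), against 20.2%. For the direct repeat bound by LXR, the arms TGACC and AACC with 6 bases between them were used, letters set after the Abca1 window had been read, so that its own match is no finding. They begin at -67 in Abca1, were also found in a window each of Fasn and Srebf1, both known LXR targets, and were found in 0.24% of all windows. A match is a run of letters and not evidence of binding.

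**Figure D1:**
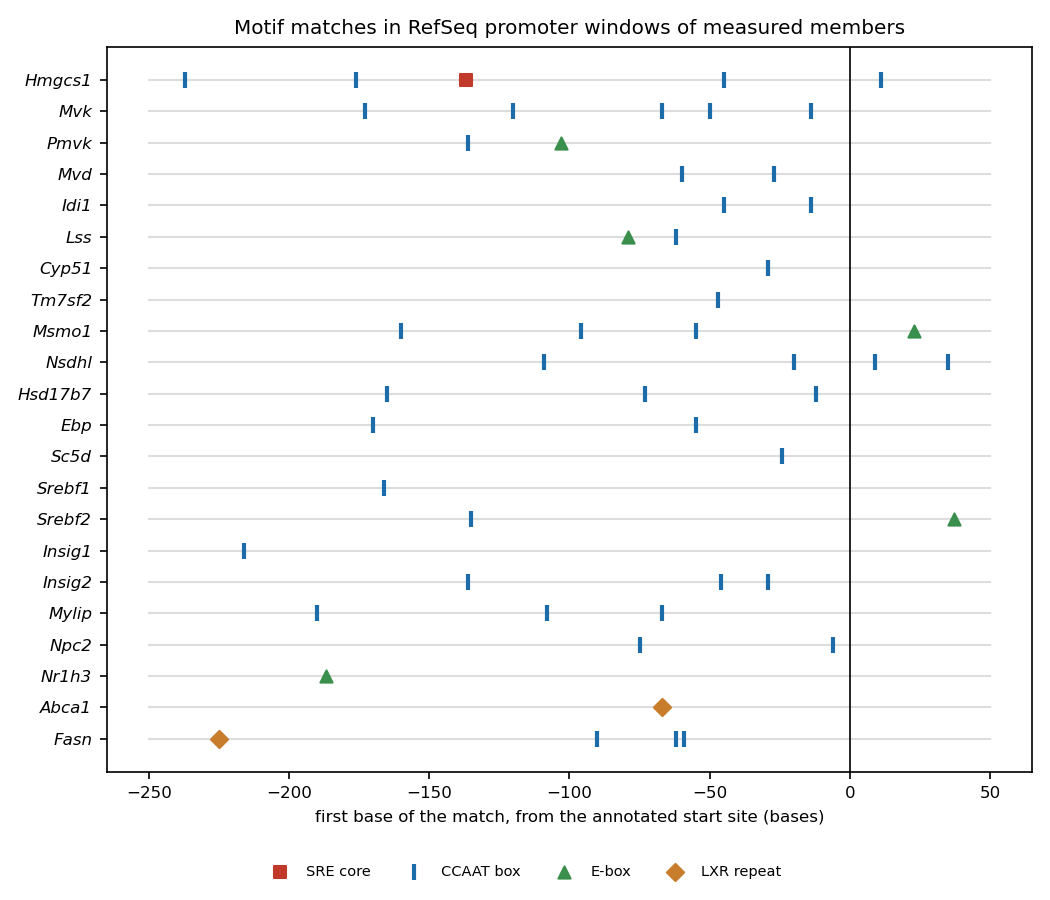
Positions of motif matches in the first listed RefSeq promoter window of each measured gene that has one; the x axis is the distance of the match's first base from the annotated start site in bases, and each symbol is a motif on either strand. CCAAT boxes recur across the synthesis enzymes, the sterol regulatory element core appears in Hmgcs1 at -137, and the LXR repeat appears in Abca1 and Fasn; the Srebf1 match lies in another window of that gene.

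Most of the measured genes were slightly higher in Snail1 KO cells, and none differed by 2-fold on its brightest probe set. Further probe sets of Scd2, Abca1 and Sc5d were past 2-fold higher. The brightest probe set by its mean over both arrays stood for a gene, and a gene was analysed if this mean exceeded a filter level of 3.97, the 40th percentile of all probe sets; all 34 measured genes passed, as did 12874 genes in total. Of the 34, 25 were higher, 8 were lower and Pmvk was equal. Among all analysed genes 48.9% were higher and 50.9% lower. The median difference was 0.16 over the 34 genes and -0.01 over all analysed genes.

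The size of these differences was small. A difference of at least 1.5-fold was found in 1 of the 34 genes in the higher direction, against 5.06% of all genes, and in 0 in the lower direction, against 6.08%. At 2-fold no gene of the list was counted in either direction, against 0.971% of all genes higher and 1.84% lower. As a yardstick, the robust SD of the difference over all analysed genes was 0.32. Within that band lay 26 of the 34 genes (76.5%) and 66.6% of all genes, while 7 of the 34 (20.6%) lay above it, against 15.8%, and 1 (2.94%) below it, against 17.6%. The genes above the band were Mvd, Tm7sf2, Msmo1, Mylip, Nr1h3, Abca1 and Scd2, and the gene below it was Scd1.

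**Figure D2:**
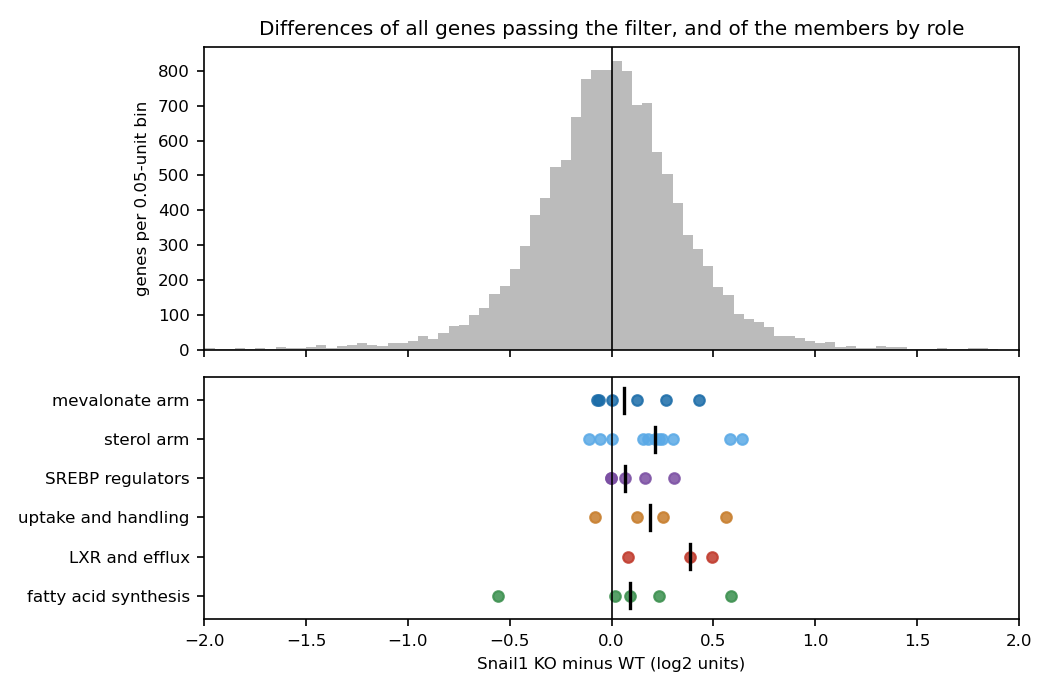
Upper panel: histogram of Snail1 KO minus WT (log2 units) over the 12874 analysed genes, in bins of 0.05, with 54 genes beyond the left edge and 3 beyond the right. Lower panel: the 34 genes by role, each point a gene and each black bar the role's median. The points crowd to the right of 0 but inside the bulk of the histogram, with Scd1 at -0.56 the lowest and Tm7sf2 at 0.64 the highest.

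In the mevalonate arm, which builds farnesyl diphosphate from acetyl-CoA, 3 of the 6 measured enzymes were higher and 2 lower, with a median difference of 0.06. Mvd, which decarboxylates mevalonate diphosphate to isopentenyl diphosphate, had a WT value of 6.61 and a Snail1 KO value of 7.05, 1.35-fold higher, and its further probe set was higher by 0.25. Hmgcs1, the cytosolic HMG-CoA synthase at the entry to the pathway, was at 9.70 and 9.97, 1.21-fold higher. Its further probe sets disagreed in size, from -0.005 at 9.83 and 9.83 to 0.82 at 7.42 and 8.24. The brightest probe set had a mean of 9.831, nearly tied with 9.829 for the one at -0.005. Hmgcs1 was thus higher on its brightest probe set, without a settled sign or size.

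The remaining enzymes of this arm differed little. Idi1, the isopentenyl diphosphate isomerase, was at 9.12 and 9.25, with a further probe set lower by a difference of -0.08. Mevalonate kinase, Mvk, was at 6.54 and 6.47 (its other probe set differed by -0.22). The value of Pmvk, phosphomevalonate kinase, was 7.12 on both arrays, equal to the last deposited digit, as it was for 56 of all analysed probe sets with a gene symbol. Fdps, farnesyl diphosphate synthase, was at 9.34 and 9.26.

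The sterol arm, which runs from squalene to cholesterol, had 9 of 11 enzymes higher and 2 lower, with a median of 0.21. Tm7sf2, a sterol reductase that acts after the lanosterol demethylase, had the largest difference of the list on the brightest probe sets. It went from 6.62 to 7.26, or 1.56-fold higher, and has a single probe set. Of all analysed genes, 4.01% had a difference at least as high. Further probe sets of Scd2, Abca1, Sc5d and Hmgcs1 differed by more than Tm7sf2. Msmo1, the methylsterol monooxygenase, was at 8.60 and 9.18, just under the 1.5-fold limit, while its other probe set, at 3.55 and 3.35, lay below the filter level. Both are steps in the removal of the extra methyl groups of lanosterol or of the double bond this leaves.

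At the head of the sterol arm, Sqle, the squalene monooxygenase and a rate-limiting step, was at 8.86 and 9.16, 1.23-fold higher. Fdft1, the squalene synthase, was at 9.10 and 9.25, and 1 further bright probe set was higher by 0.18. For Lss, which closes the ring to lanosterol, the brightest probe set gave no difference to speak of, with 6.89 and 6.90. A dimmer Lss probe set was at 4.33 and 4.95, a difference of 0.62, so the probe sets of Lss do not settle its size.

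Further down the sterol arm, 4 of the remaining enzymes were higher and 2 lower on the brightest probe sets. Cyp51, the lanosterol demethylase, was at 6.76 and 6.97. Nsdhl, a sterol dehydrogenase, was at 8.22 and 8.47, and Dhcr7, the reductase of the last step, was at 6.55 and 6.78, 1.18-fold higher. Sc5d, the desaturase before Dhcr7, was at 9.02 and 9.20, but its further probe sets were higher by 1.02, from 5.75 to 6.77, and by 0.34. Sc5d was therefore higher on all 3 probe sets, by amounts from 1.13-fold to 2.03-fold. Hsd17b7, the ketosteroid reductase of the demethylation complex, was at 6.81 and 6.70, with another probe set higher by 0.40. The isomerase Ebp was at 9.65 and 9.60.

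Over both arms together, 12 of the 17 measured enzymes were higher and 4 lower, with a median of 0.18. The medians of the sterol and mevalonate arms were 0.21 and 0.06, and whether the arms differ was not tested.

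**Figure D3:**
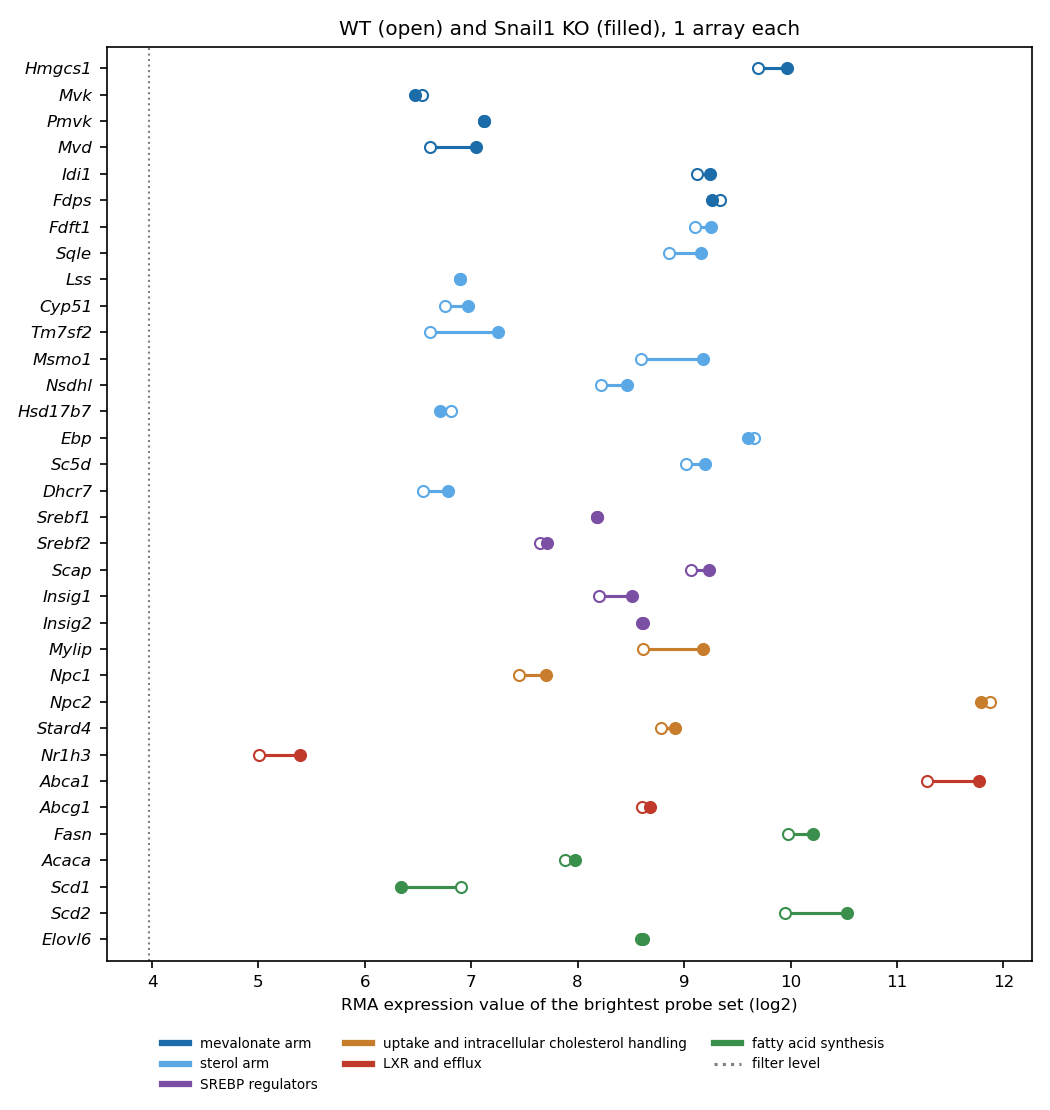
RMA expression value (log2) of the brightest probe set of each measured gene in WT (open circle) and Snail1 KO (filled circle), 1 array each, coloured by role; the dotted line is the filter level of 3.97. Within a row the line shows the difference, and positions in different rows cannot be compared because probes differ in brightness. The longest lines to the right are those of Tm7sf2, Scd2, Msmo1 and Mylip, and the longest to the left is that of Scd1.

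Transcripts of the SREBP factors themselves hardly differed. Srebf1, which encodes SREBP-1, was at 8.18 on both arrays, and Srebf2, which encodes SREBP-2, was at 7.64 and 7.71 with a further probe set at 7.28 and 7.25. These arrays do not measure cleavage of the proteins, the step at which sterols act. Scap, the escort protein, was at 9.07 and 9.24, 1.12-fold higher. Insig1, which retains Scap and is itself a sensitive SREBP target, was at 8.20 and 8.51, 1.24-fold higher on its single probe set. Insig2, the less sterol-responsive of the pair, was at 8.61 on both arrays, and its further probe sets differed by -0.04 and -0.01. Of the 5 regulators 3 were higher and 2 lower, with a median of 0.07.

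Among genes that control uptake and move cholesterol inside the cell, 3 of the 4 measured were higher and the median was 0.19. Mylip, the LXR-induced ubiquitin ligase also called Idol, which degrades lipoprotein receptors, was at 8.62 and 9.18, a difference of 0.56. Npc1, the lysosomal membrane protein that exports cholesterol, was at 7.45 and 7.70, 1.19-fold higher. Npc2, its soluble partner in the lysosome, was at 11.87 and 11.79, with the other probe sets from -0.06 to 0.10. Stard4, a sterol carrier and SREBP target, was at 8.79 and 8.91, and its 3 probe sets were higher by 0.09 to 0.32.

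The LXR and efflux genes had the highest median of the 6 roles, 0.39, over 3 measured genes, all of them higher. Abca1, which loads cholesterol onto lipid-poor apolipoprotein A-I and whose promoter is printed above, was higher on all 3 probe sets. The brightest gave 11.28 for WT and 11.77 for Snail1 KO (1.41-fold), the next 5.76 and 7.16 (2.65-fold) and the dimmest 4.81 and 5.76 (1.93-fold). The direction for Abca1 was therefore shared, while its size ranged from 0.49 to 1.40. Abcg1, which exports cholesterol to mature high-density lipoprotein, was at 8.60 and 8.68, with a further probe set at 5.28 and 5.80. Nr1h3, the gene for LXR alpha, was at 5.01 and 5.39 on its single, dim probe set, 1.31-fold higher. Its difference is the median of the role, 0.39. A stricter filter at the 60th percentile left Nr1h3 out and gave a median of 0.29 over 2 genes.

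Fatty acid synthesis genes, in which SREBP-1c and LXR are both known to act, were mixed. Scd1 and Scd2, paralogous desaturases that make monounsaturated fatty acids, had opposite signs. Scd2 was at 9.95 and 10.53 on its brightest probe set (just under 1.5-fold higher), at 6.19 and 8.16 on the next (3.92-fold) and at 5.05 and 5.33 on the third. Scd1 was at 6.90 and 6.34, 1.47-fold lower, with the other probe set at 4.89 and 4.59. All Scd2 probe sets were thus higher and both Scd1 probe sets lower; probe sequences were not used here, so how well they separate these related genes is not known.

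The other fatty acid genes showed smaller differences. Fasn, the fatty acid synthase, was at 9.98 and 10.21, 1.18-fold higher. Acaca, the acetyl-CoA carboxylase that supplies it, was at 7.88 and 7.97. Elovl6, the elongase that extends palmitate, was at 8.60 and 8.61. The median over the 5 genes was 0.09.

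Agreement between probe sets of a gene set a limit on these sizes. The 34 genes had 73 probe sets, 64 of them above the filter level, and of the 64, 44 were higher, 19 lower and 1 equal. Of 18 genes with several such probe sets, 12 had probe sets of the same sign throughout (66.7%), 9 higher and 3 lower, against 56.0% of the 6053 analysed genes with several. The difference of a further probe set from the brightest had an SD of 0.40 over all analysed genes, which is larger than most of the differences above.

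**Figure D4:**
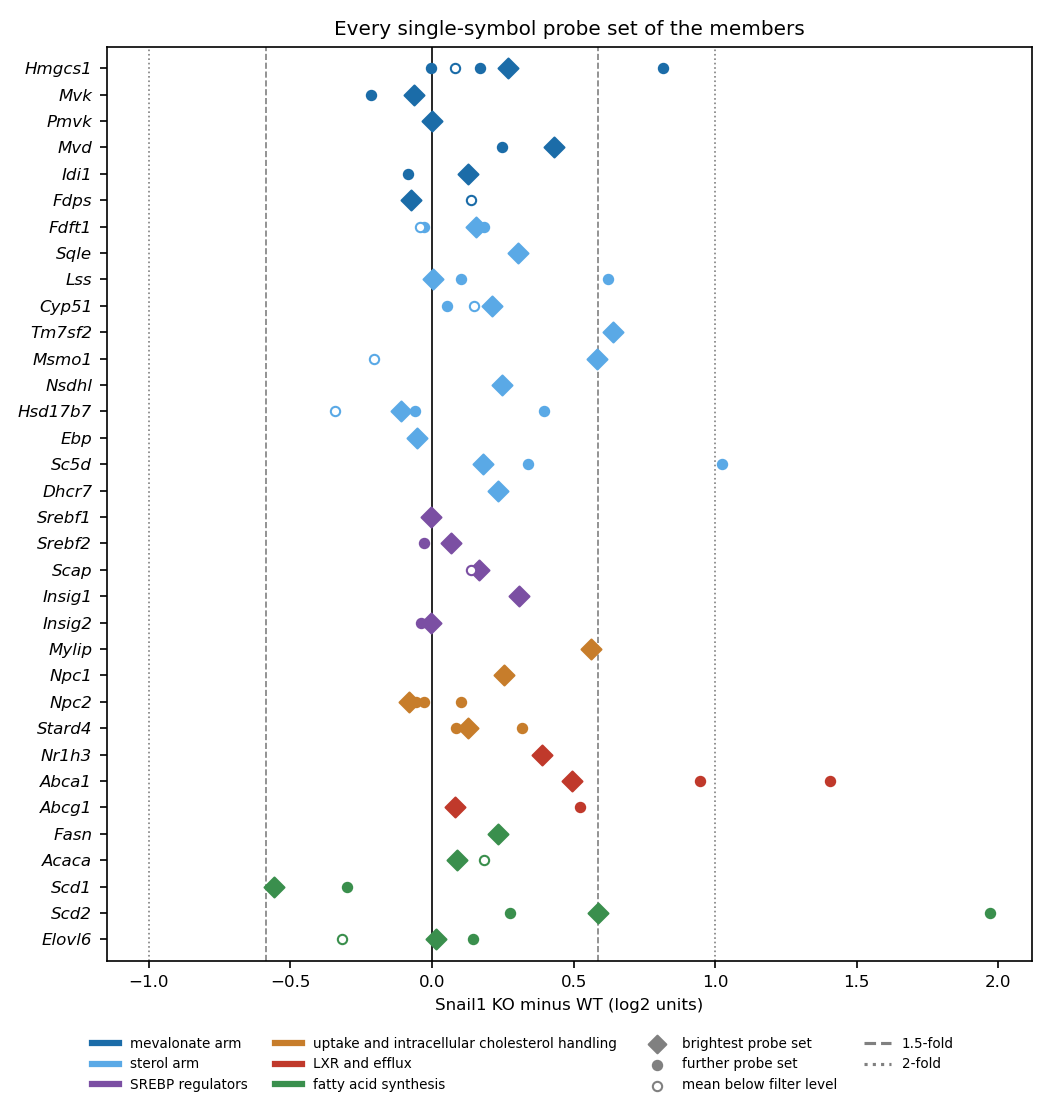
Snail1 KO minus WT (log2 units) for each of the 73 probe sets of the 34 measured genes; diamonds are the brightest probe set of a gene, circles the further ones, open symbols have a mean below the filter level, and vertical lines mark 1.5-fold and 2-fold. Probe sets of Abca1, Sc5d and Scd2 spread widely on the positive side, with the farthest at 1.97 for Scd2, while those of Insig2 lie together near 0.

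Grouping the measured genes by promoter motif gave similar medians with and without the CCAAT box. The 21 genes with a box had a median difference of 0.18 and the 5 without had 0.17. The 7 genes with the E-box in a window had a median of 0.003, from -0.005 to 0.58, and the 19 without it had 0.21, from -0.11 to 0.64. The range of the E-box genes lies inside that of the others.

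A further 38 genes of the same pathways, not on the list, were mostly higher too. They were also chosen with earlier results of these arrays known. Of the 38, 36 were measured and 34 analysed. Of the 34, 23 were higher (67.6%) and 11 lower, against 48.9% and 50.9% of all analysed genes. The median was 0.17 and the mean 0.06, against a mean of 0.17 for the list. At 1.5-fold or more, 1 of the 34 was higher and 2 lower, against 5.06% and 6.08% of all genes. Of the 2, 1 was past 2-fold, Ch25h, against 1.84% of all genes. Ch25h makes 25-hydroxycholesterol, an oxysterol that retains Scap through Insig and activates LXR. Its WT value was 10.42 and its Snail1 KO value 8.70, 3.29-fold lower on its single probe set, and only 0.59% of all analysed genes had a difference at least as low. Cyp27a1, the mitochondrial enzyme that makes 27-hydroxycholesterol, was in contrast at 5.27 and 5.99, 1.65-fold higher. Rxra, a partner receptor of LXR, was 1.22-fold higher.

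Ch25h is also known as an interferon-induced gene, and interferon genes were far lower on the same array. Of 8 listed, 6 were measured and 5 analysed, all at least 2-fold lower, with a median of -2.81 and a summed unlogged signal of 7207 in WT and 1092 in Snail1 KO. The part of this shift in the values of Ch25h and of the sterol genes was not tested.

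Receptors and sterol transfer proteins outside the list were mostly higher. Vldlr, a receptor for lipoproteins and reelin that Mylip is known to degrade, was at 8.18 and 8.71 on its brightest probe set, 1.44-fold higher, and its other 5 probe sets were higher by 1.24 to 1.68. Gramd1b, which carries cholesterol from the plasma membrane to the endoplasmic reticulum, was at 6.80 and 7.21, and its other probe set was higher by 0.69. Scarb1, the receptor for high-density lipoprotein, was lower on all 3 probe sets, by a difference of -0.37 on the brightest, or 1.30-fold. Of the 8 genes of this group 6 were higher and 2 lower, with a median of 0.27.

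SREBP processing and degradation genes were higher in 5 of 5 cases on their brightest probe sets, with a median of 0.20, while a further probe set was lower for Mbtps1 (-0.18) and for Erlin1 (-0.27). Rnf139, a ubiquitin ligase of the endoplasmic reticulum, was at 10.06 and 10.36, Mbtps1, the protease that makes the initial cut in SREBP, at 9.40 and 9.60, and Erlin2, a scaffold in sterol-regulated degradation, at 7.91 and 8.11. The isoprenoid branch draws on farnesyl diphosphate for dolichol and ubiquinone. Its genes were lower in 5 of 5 cases on their brightest probe sets, with a median of -0.13. Of all analysed genes 48.9% were higher and 50.9% lower. Every difference of these 2 groups on the brightest probe sets lay within the robust SD of 0.32, and neither group was tested. Probe sets disagreed in sign for Ggps1 (from -0.62 to 0.44), Dhdds (from -0.03 to 0.07) and Nus1 (from -0.39 to 0.15). Nus1, a subunit of the enzyme that builds the dolichol chain, was at 10.84 and 10.58, and the ubiquinone genes Coq2 and Pdss2 differed by -0.19 and -0.13. Other lipid synthesis genes linked to SREBP had 8 of 11 analysed higher, with a median of 0.15. Acly, the citrate lyase that yields acetyl-CoA, was at 10.58 and 10.96, while its further probe sets above the filter level differed by -0.05 and 0.84. The phosphatidate phosphatase Lpin1 was at 7.84 and 8.18. Tmem97, a sterol-responsive membrane protein that binds Npc1, went the other way on its single probe set, from 7.74 to 6.83, 1.88-fold lower.

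**Figure D5:**
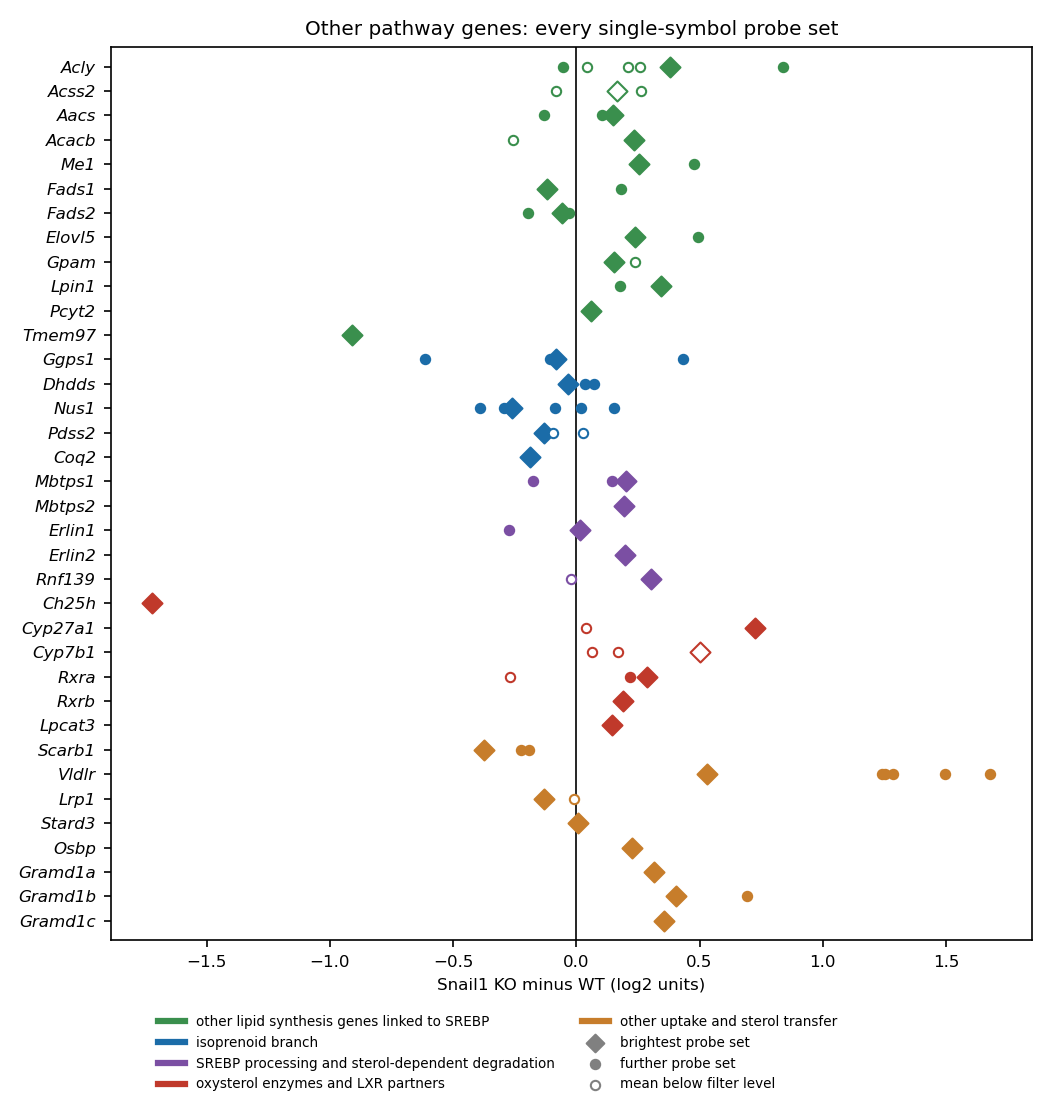
Snail1 KO minus WT (log2 units) for every probe set of the 36 measured pathway genes outside the list, coloured by group; diamonds are the brightest probe set of a gene, circles the further ones, and open symbols have a mean below the filter level. Ch25h lies far to the left at -1.72, Tmem97 at -0.91, and all 6 probe sets of Vldlr lie to the right, between 0.53 and 1.68.

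Both arrays carried the endothelial identity of the label and the mark of their treatment. All 11 endothelial markers were analysed, 7 higher and 4 lower, with a median difference of 0.07. Cdh5 was at 11.34 and 11.46, the claudin Cldn5 was 2.11-fold and the receptor Tek 1.53-fold higher, and Emcn, Esam, Erg and Robo4 were lower, by differences from -0.40 to -0.09. Snai1 had values of 5.33 and 3.59 on its single probe set, 3.35-fold lower with Cre, and the 4 control probe sets for Cre were at 2.69 to 3.83 and at 11.87 to 12.86. Of 8 macrophage and leukocyte markers, cells rich in LXR targets, 4 were above the filter level, of which Cd14 was higher by 0.17 and Cd68, Csf1r and Lyz2 lower, with a median of -0.08. Ptprc, Adgre1, Tyrobp and Itgam were below it, and the summed unlogged signal of the 8 was 663 and 688, mostly from Cd14. Among the 4 measured adipocyte markers the lipid droplet gene Plin4 was above the filter level, at 4.46 and 5.40, and Adipoq, Cidec and Lep were below it, with a summed signal of 44.5 and 65.8. The hepatocyte markers Alb and Afp were below it too, Apoa1 and Ttr were above it, and the 4 measured summed to 94.7 and 78.8. Smooth muscle and pericyte markers, 7 of 8 analysed, had a median of -0.81, with 5 lower and 2 higher. Acta2, Tagln, Myl9, Cnn1 and Pdgfrb were lower, by differences from -2.54 to -0.40, while Cspg4 (0.10) and Des (0.007) were slightly higher. Rgs5 was below the filter level. These markers summed to 3551 in WT and 955 in Snail1 KO, mostly from Acta2 and Tagln. The part of such cells in the lipid gene differences was not tested. Fewer cells of a type cannot be told apart from less RNA per cell.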

How the data were processed

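RNA from 1 WT and 1 Snail1 KO culture was amplified from 250 ng and hybridised to Affymetrix mouse arrays, per the labels. Per the submitters' processing notes, the authors ran RMA (affy package), and the deposited values are log2, with versions not given in the sources used here. RMA corrects background, quantile-normalizes the arrays and summarises probes, so a change of total mRNA is not visible. The number of arrays limits the precision, and no detection calls were used.

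The 45101 probe sets include 64 controls; 34945 of the others have 1 gene symbol, 932 several and 9160 none here. Single-symbol probe sets were used, and RefSeq identifiers changed 0 symbols. Differences, medians and counts at 1.5-fold and 2-fold were computed in Python 3.11.15 with pandas 2.3.3 and numpy 2.4.6, and counting was tested on simulated data. Alternatives were the mean of all probe sets, no filter, a filter at the 60th percentile, probe sets without the suffixes _s_at, _x_at and _a_at, and a lowess centring (statsmodels 0.14.6, fraction 0.3). The members and lists were chosen with earlier results of these data known. The text names every measured list gene, Snai1 and Ch25h. From each group of other pathway genes it names up to 3 analysed genes with the largest difference. Erlin1, Ggps1 and Dhdds are named besides because their probe sets disagreed in sign. Markers are named where a list is described.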

Additional observations from a re-analysis of the deposited data

How the results depend on the processing

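No replicate could be left out because each group holds 1 array, and no paired analysis was possible because the labels give no replicate numbers and each group holds 1 array. Under the 5 alternatives the median of every role kept its sign and moved by less than 0.1, and that of the 34 genes ranged from 0.15 to 0.18. The count of genes higher was 23 to 25, with 11 lower after lowess centring, where Lss, Elovl6 and Pmvk were slightly negative. At least 1.5-fold higher were 3 genes with the mean of all probe sets (Tm7sf2, with Abca1 at 0.95 and Scd2 at 0.94) and 2 genes without the suffixed probe sets (Tm7sf2, with Lss at 0.62). After lowess centring 1 gene, Scd1, was at least 1.5-fold lower, at -0.64, and Scd2, at 0.62, took the place of Tm7sf2 as the gene past 1.5-fold higher. Of 165 values of single genes under an alternative, 163 moved by less than the SD between probe sets and 2 by more. The filter alternatives leave the value of a gene unchanged, so those values could not move. The lowess curve ran only from -0.13 to 0.08, and a gene with a single probe set keeps its value under the mean. Most of the 165 values thus could not have moved past the SD, and their count says little about stability. Only Tm7sf2 was past 1.5-fold in the main run, and it has a single probe set, so its unchanged sign tells little. Smaller differences did change sign. With the mean of all probe sets, Fdps went from -0.07 to 0.03 and Elovl6 from 0.02 to -0.05. That mean takes in probe sets below the filter level, and each of these sign changes came from such a probe set. Differences under the SD between probe sets, 0.40, cannot be read as changes of the gene. That SD holds no variation between cultures or arrays, so a larger difference is not shown to be a change either.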
